A study of Mus musculus with 6 samples.

Results

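The genes described here are 31 layer markers and transcription factors of cortical excitatory neurons. All are among the 53640 gene symbols that the count tables of all libraries share. They were taken by name from a list chosen with earlier results of these data known. They fall into 6 genes of the upper layers (Cux1, Cux2, Rorb, Rasgrf2, Calb1 and Otof), 12 genes of the deep layers (Tbr1, Fezf2, Bcl11b, Foxp2, Crym, Etv1, Tle4, Syt6, Ntng2, Tshz2, Deptor and Tcerg1l) and 13 genes of excitatory neurons broadly or of several layers (Neurod1, Neurod2, Neurod6, Emx1, Nrgn, Foxp1, Pou3f1, Pou3f2, Lmo3, Lmo4, Mef2c, Lhx2 and Bhlhe22). All 31 passed the filter on low counts. RNA was sequenced from bulk tissue labelled PFC of 6 mice aged 6 months, with 2 libraries per group, described as biological duplicates. Treated tau libraries came from PS19(P301S) mice that had received WDR5-0103, a ligand of WDR5, which is a subunit of histone H3K4 methyltransferase complexes. Tau libraries came from PS19(P301S) mice given vehicle, and control libraries from mice labelled C57BL/6 x C3H given vehicle. In PS19 mice, human tau with the P301S change is expressed from the prion protein (Prnp) promoter, which is active in many neurons and not in the cortex alone. No dose or route of WDR5-0103 is stated in the labels.

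The mammalian neocortex is built of layers whose excitatory neurons differ in their targets. Neurons of the upper layers connect cortical areas with each other, whereas neurons of layer 5 send axons to the striatum, brainstem and spinal cord and neurons of layer 6 to the thalamus. Each class keeps expressing transcription factors that set its identity during development, so their transcripts serve in adult tissue as a reading of which layers a dissected piece holds. Below layer 6 lies white matter, rich in oligodendrocytes, and in frontal dissections the striatum and the olfactory bulb lie close by. In bulk tissue, fewer cells of a type and less RNA per cell cannot be told apart.

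Several libraries stood apart before any comparison. The gene counts of a library summed to between 17690811 (tau 2) and 34774643 (treated tau 1). The library labelled control 1 had 1654 CPM (counts relative to library size, scaled by TMM, the trimmed mean of M values) of Prnp, whose promoter drives the transgene, against 876 CPM in control 2, while the treated tau and tau libraries lay between 1472 and 1876 CPM. The level in the library labelled control 1 therefore goes against its label, and every direction drawn against the control group includes it. That library also held 106 CPM of 6 olfactory bulb markers summed, against 4.85 to 7.72 CPM in the other 5 libraries, with the bulb transcription factor Eomes at 12.9 CPM and Lhx1 at 0 counts. The 12 striatal markers summed to 619 CPM in tau 2 and to between 369 and 400.4 CPM elsewhere, and the 11 oligodendrocyte markers to 3925 CPM in tau 2 and 1039 CPM in control 2. Both treated tau libraries and the library labelled control 1 carried the male transcript Ddx3y, at 91.2 to 108 CPM, and both tau libraries and control 2 carried the female transcript Xist, at 186 to 318 CPM. Sex and treatment therefore cannot be told apart between treated tau and tau, and the control group holds 1 library of each kind. Slc17a7, the vesicular glutamate transporter of cortical excitatory neurons and no member, was present in every library, at 1005 and 992 CPM in treated tau, 920.3 and 891 CPM in tau, and 933 and 973 CPM in control.

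The promoters of 4 members are shown because they stand for the gene classes whose balance differed between libraries. Cux2 and Rorb represent the upper layers, Syt6 layer 6 and Neurod6 excitatory neurons broadly. Each runs 5′ to 3′ on the gene's own strand from 250 bases before to 50 bases after the RefSeq start (GRCm38.p6). They lie at chr5:122049802-122050101 (Cux2, minus strand), chr19:19111147-19111446 (Rorb, minus strand), chr3:103574995-103575294 (Syt6, plus strand) and chr6:55681214-55681513 (Neurod6, minus strand). Cux2 and Rorb have 2 listed promoters each and Syt6 has 3. Only the first listed promoter of a gene was used, here and in the motif counts, so other promoters may differ. Capitals mark the T-box site AGGTGT, read on either strand, a sequence that T-box factors such as Tbr1 can bind.
Cux2: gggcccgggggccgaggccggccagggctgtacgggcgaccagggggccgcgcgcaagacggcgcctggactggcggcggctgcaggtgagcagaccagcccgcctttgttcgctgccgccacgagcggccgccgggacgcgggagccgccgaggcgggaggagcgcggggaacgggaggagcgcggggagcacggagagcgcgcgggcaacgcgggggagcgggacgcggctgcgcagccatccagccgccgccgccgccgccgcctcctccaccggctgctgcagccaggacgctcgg
Rorb: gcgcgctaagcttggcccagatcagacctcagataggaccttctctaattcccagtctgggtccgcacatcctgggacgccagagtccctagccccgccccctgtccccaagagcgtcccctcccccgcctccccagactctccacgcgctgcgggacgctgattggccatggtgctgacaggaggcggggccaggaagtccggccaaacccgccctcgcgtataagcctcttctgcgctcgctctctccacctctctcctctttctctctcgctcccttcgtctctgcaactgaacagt
Syt6: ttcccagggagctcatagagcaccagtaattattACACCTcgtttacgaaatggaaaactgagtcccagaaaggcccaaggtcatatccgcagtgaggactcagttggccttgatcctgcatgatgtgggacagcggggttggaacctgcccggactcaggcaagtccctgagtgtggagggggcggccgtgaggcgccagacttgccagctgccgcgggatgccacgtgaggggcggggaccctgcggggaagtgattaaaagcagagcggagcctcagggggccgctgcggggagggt
Neurod6: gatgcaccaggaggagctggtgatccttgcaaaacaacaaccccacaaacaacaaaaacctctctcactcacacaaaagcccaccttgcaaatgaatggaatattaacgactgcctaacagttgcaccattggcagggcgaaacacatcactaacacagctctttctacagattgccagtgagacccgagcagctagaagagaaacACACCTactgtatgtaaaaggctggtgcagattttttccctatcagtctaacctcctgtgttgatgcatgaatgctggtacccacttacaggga
GC content was 80.3% in the Cux2 promoter, 63.7% in Rorb, 61.0% in Syt6 and 46.3% in Neurod6. RefSeq promoters were matched for 24 of the 31 members, whose median GC content was 61.2%, against 52.7% over all 27025 genes with a promoter in the table. The T-box site was found in 5 of the 24 (20.8%: Lmo3, Neurod1, Neurod6, Ntng2 and Syt6), against 13.9% of all promoters. The E-box CAGATG, a sequence bound by NEUROD factors, was found on either strand in 3 of the 24 (12.5%: Neurod2, Nrgn and Ntng2), against 17.2% of all. TATAAA was found in Bcl11b and Mef2c (8.33%, against 14.2% of all). The POU octamer ATGCAAAT and the cyclic AMP response element TGACGTCA were in none of the 24, against 1.75% and 1.88% of all promoters. These motifs do not overlap each other in letters, and a match describes the sequence only.

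Levels between genes were compared as CPM per kilobase of exon, averaged over the 6 libraries. Nrgn, which encodes the calmodulin-binding postsynaptic protein neurogranin, was highest at 224 ± 28.5 CPM per kilobase (SD, n = 6), and its range over the libraries did not overlap that of the next gene. Lmo4, a LIM-only adaptor of transcription complexes, followed at 70.7 ± 5.12, and Mef2c, an activity-regulated MADS-box factor, at 65.0 ± 5.16 CPM per kilobase, with overlapping ranges. The bHLH factor Neurod6 stood at 51.8 ± 8.22 CPM per kilobase and did not overlap the gene below it, Calb1. Among upper layer members Calb1 (calbindin, a calcium buffer also made by interneurons) was highest at 29.2 ± 6.40 and Otof (otoferlin, a ferlin of membrane fusion) lowest at 1.67 ± 0.474 CPM per kilobase. Among deep layer members Crym, a thyroid hormone-binding crystallin, was highest at 24.5 ± 3.45. Tshz2, a teashirt zinc finger factor, was the lowest of all 31 at 0.530 ± 0.0983 CPM per kilobase. From Calb1 down to Pou3f1 the range of every gene overlapped that of its neighbour in the order, so neighbours there did not differ beyond their spread.

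**Figure D1:**
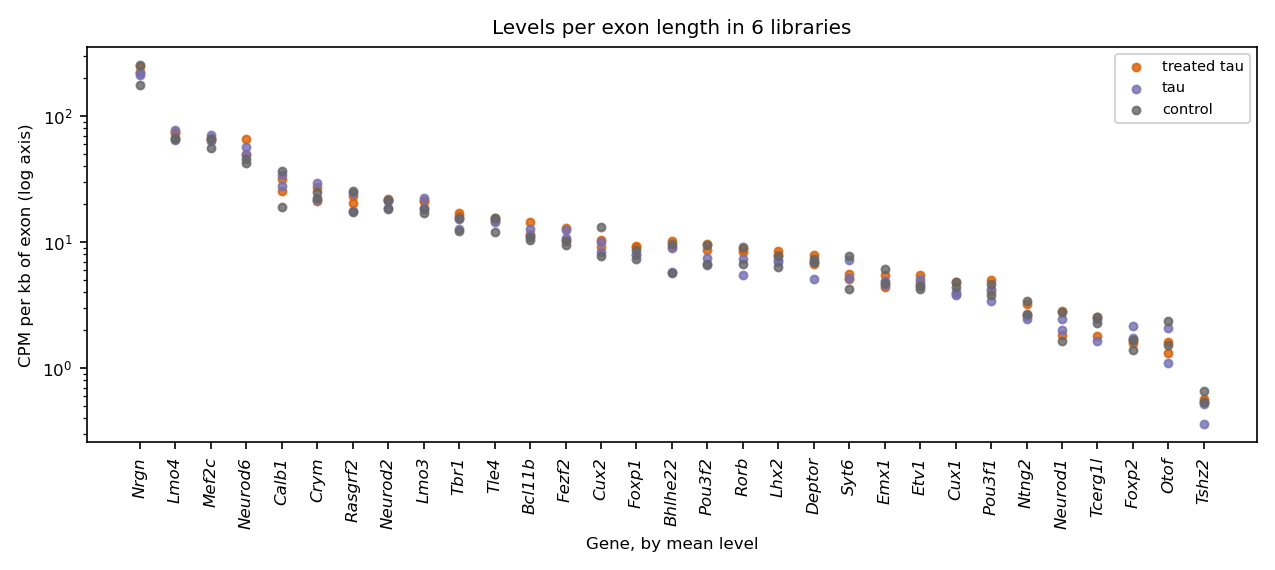
Expression level of each of the 31 members in the 6 libraries, in CPM per kilobase of exon on a log axis, with genes ordered by mean level and each library drawn as a point in the colour of its group. Nrgn lies highest, at a mean of 224 CPM per kilobase, and Tshz2 lowest, at 0.530.

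The upper layer genes differed more between duplicates than between groups. In treated tau, 5 of the 6 upper layer members lay above their mean over the 6 libraries in library 1 and 1 of 6 in library 2. In tau, 4 of 6 lay above it in library 1 and 0 of 6 in library 2. In control, 1 of 6 lay above it in the library labelled control 1 and 6 of 6 in control 2, which was the highest library for every upper layer gene.

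Cux2, a homeodomain factor of layer 2 to 4 neurons (chromosome 5, 121856366 to 122050102, mm10), had 104 and 92.6 CPM in treated tau, 102 and 84.0 CPM in tau, and 77.9 and 133 CPM in control. The control libraries enclosed all 4 others. Its relative Cux1 had 96.0 and 77.2 CPM in treated tau, 76.5 and 79.8 CPM in tau, and 87.9 and 97.1 CPM in control, so that tau lay below control without overlap. Rorb, the nuclear receptor that marks layer 4 (chromosome 19, 18930605 to 19111196), had 97.9 and 92.8 CPM in treated tau, 80.9 and 61.0 CPM in tau, and 74.4 and 102 CPM in control. Both treated tau values exceeded both tau values and lay inside the control range. Rasgrf2, a guanine nucleotide exchange factor of layers 2 and 3, had 215 and 189.6 CPM in treated tau, 227 and 162 CPM in tau, and 160.3 and 237 CPM in control. Calb1 had 154 and 124 CPM in treated tau, 165 and 135 CPM in tau, and 92.9 and 178 CPM in control. For both, the lowest and the highest value of all libraries were control values. Otof had 12.7 and 10.5 CPM in treated tau, 16.4 and 8.65 CPM in tau, and 12.1 and 18.7 CPM in control, with the groups overlapping throughout.

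**Figure D2:**
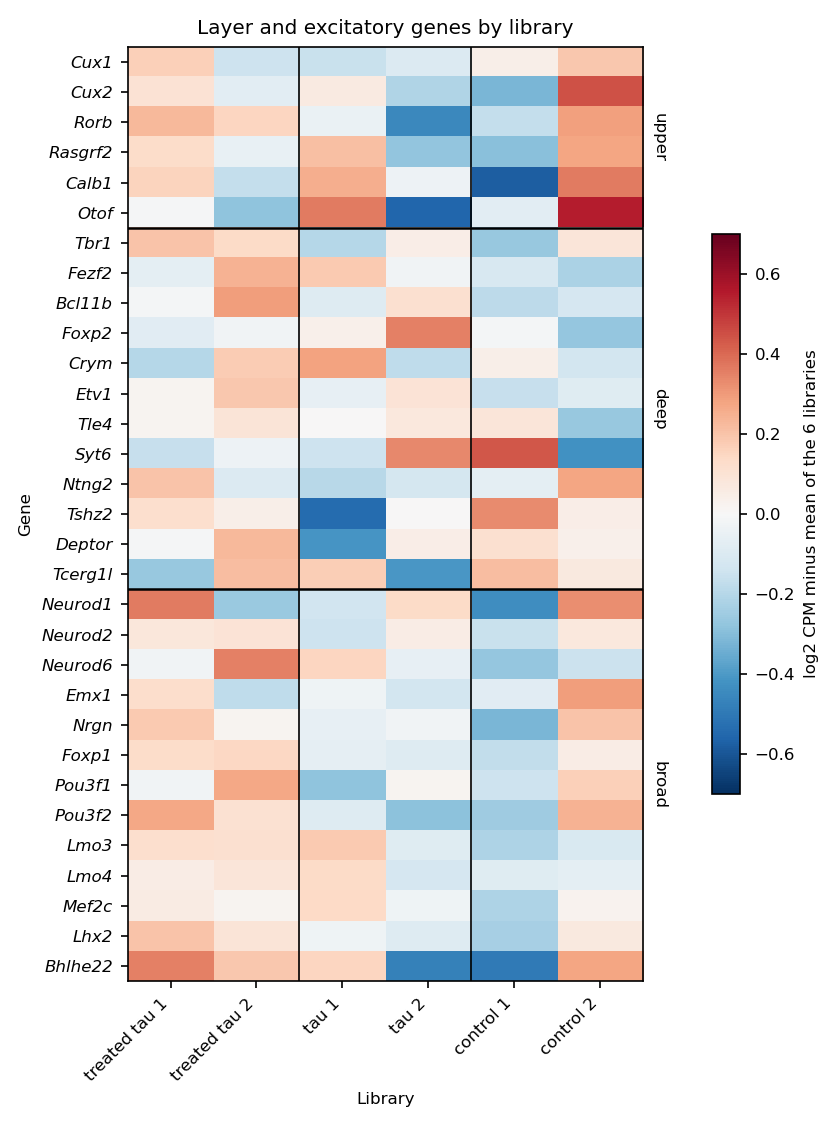
Heat map of the 31 members (rows, by class) in the 6 libraries (columns), coloured by the difference of log2 CPM from the gene's mean over all libraries. Control 2 is above the mean for 6 of 6 upper layer genes and the library labelled control 1 for 1 of 6, while for deep layer genes the library labelled control 1 has 6 and control 2 has 5 of 12 above the mean.

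The 12 deep layer genes varied less between duplicates than the upper layer genes. Their median largest duplicate fold was 1.28, against 1.59 for the upper layer genes. Over 20249 genes with a count in every library it was also 1.28, so the deep layer genes varied about as other genes did. Of the 12, 5 and 9 lay above their mean in the treated tau libraries, 5 and 8 in the tau libraries, and 6 and 5 in the control libraries. Tbr1, the T-box factor of corticothalamic layer 6 neurons (chromosome 2, 61802930 to 61814114), had 93.0 and 88.7 CPM in treated tau, 70.4 and 83.6 CPM in tau, and 67.2 and 85.9 CPM in control. Treated tau lay above both other groups without overlap. Tle4, a Groucho corepressor of the same neurons, had 83.9 and 88.1 CPM in treated tau, 82.9 and 87.1 CPM in tau, and 88.0 and 69.1 CPM in control. Foxp2, a forkhead factor of layer 6 that striatal neurons also express (chromosome 6, 14901349 to 15441977), had 26.1 and 27.1 CPM in treated tau, 28.2 and 35.1 CPM in tau, and 27.3 and 22.8 CPM in control. Its tau values were the highest, above both other groups. Syt6, a synaptotagmin of layer 6, had 29.9 and 32.7 CPM in treated tau, 30.2 and 42.2 CPM in tau, and 45.2 and 24.9 CPM in control, with the extremes in the control group.

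Among genes of layer 5, Fezf2, the zinc finger factor that specifies subcerebral projection neurons (chromosome 14, 12342094 to 12348189), had 32.0 and 39.8 CPM in treated tau, 38.2 and 33.0 CPM in tau, and 31.1 and 28.8 CPM in control. Bcl11b, a zinc finger factor of the same neurons and of striatal projection neurons (chromosome 12, 107910403 to 108003602), had 95.02 and 117 CPM in treated tau, 90.03 and 103 CPM in tau, and 84.5 and 88.4 CPM in control. Etv1, an ETS factor of layer 5 (chromosome 12, 38779380 to 38870484), had 64.3 and 72.3 CPM in treated tau, 60.9 and 67.8 CPM in tau, and 56.8 and 59.8 CPM in control. For these 3 genes both PS19 groups lay above control without overlap and overlapped each other. Deptor, an inhibitor of the mTOR kinase (chromosome 15, 55112317 to 55259271), had 59.9 and 70.6 CPM in treated tau, 45.3 and 62.2 CPM in tau, and 65.2 and 61.7 CPM in control. Crym had 71.9 and 93.3 CPM in treated tau, 100.1 and 73.0 CPM in tau, and 84.9 and 75.5 CPM in control, all groups overlapping. The 3 faintest were Ntng2, a membrane-anchored netrin-like adhesion protein, at 9.82 to 13.6 CPM over all libraries, Tcerg1l at 6.30 to 9.75 CPM and Tshz2 at 2.78 to 5.13 CPM. For Ntng2 and Tshz2 both treated tau and control exceeded tau without overlap.

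The balance between the classes was expressed in each library as the mean log2 CPM of the 6 upper layer members minus that of the 12 deep layer members. The difference was 1.36 and 0.995 in treated tau, 1.41 and 0.912 in tau, and 0.943 and 1.64 in control. Group means were 1.18 ± 0.257 in treated tau, 1.16 ± 0.349 in tau and 1.29 ± 0.496 in control (log2 units, SD, n = 2 each). The group means therefore differed by -0.14 for tau minus control, 0.02 for treated tau minus tau and -0.12 for treated tau minus control, whereas library 1 minus library 2 of the same group came to 0.36 in treated tau, 0.49 in tau and -0.70 in control. Each of the 3 differences between groups was smaller than each of the 3 differences between duplicates. Group means average 2 libraries and duplicate differences use single ones, so this order is favoured beforehand. No test was made of this score, since its genes were chosen with earlier results of these data known. Without the library labelled control 1 and tau 2 together, a choice made after the data were seen, the difference was -0.24 for tau minus control, -0.23 for treated tau minus tau and -0.47 for treated tau minus control.

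The same order of duplicates was seen in genes outside the list. Over 6 other upper layer and 10 other deep layer genes, the difference was 0.602 and 0.0186 in treated tau, 0.578 and 0.0393 in tau, and 0.277 and 1.00 in control. With the members that striatal or olfactory bulb neurons also express left out (5 upper and 6 deep layer genes kept), it was 2.18 and 1.85 in treated tau, 2.27 and 1.74 in tau, and 1.71 and 2.41 in control. Beside it, the summed oligodendrocyte markers were 1792 and 2038 CPM in treated tau, 1725 and 3925 CPM in tau, and 2097 and 1039 CPM in control. The 6 libraries stood in exactly the opposite order for these markers and for the upper-minus-deep difference of the members. Of the 13 gene lists read beside the members 2 had this property, the other being 6 hippocampal markers. These summed to 20.8 and 21.1 CPM in treated tau, 19.9 and 24.2 CPM in tau, and 21.5 and 19.9 CPM in control. Their order included a near tie, at 19.91 CPM in control 2 and 19.95 CPM in tau 1. Single genes peaked in different libraries: Prox1 in tau 2 (14.1 CPM), Fibcd1 in the library labelled control 1 (9.16 CPM) and Spink8 in treated tau 2 (2.05 CPM). The 8 interneuron markers summed to 710 and 696 CPM in treated tau, 684 and 768 CPM in tau, and 839 and 652 CPM in control, and the 5 astrocyte markers to between 1013 and 1109 CPM in all libraries. Within the interneuron list, the library labelled control 1 had the most Gad1 (449 CPM, against 267 to 316 CPM elsewhere). It also had the most Dlx1 (41.2 CPM, against 22.2 to 23.6 CPM elsewhere). Slc32a1 was nearly tied, at 30.1 CPM there and 29.8 CPM in treated tau 1. The library labelled control 1 had the least Pvalb (31.5 CPM), Sst (77.9 CPM) and Vip (37.3 CPM). Its Gad2 and Lhx6 lay within the range of the other libraries. Among astrocyte markers Slc1a3 was the largest, at 589 to 657 CPM, whereas Gfap had 112 CPM in tau 2 and 49.5 to 66.1 CPM elsewhere. The part of these cells or regions in the layer balance was not tested.

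**Figure D3:**
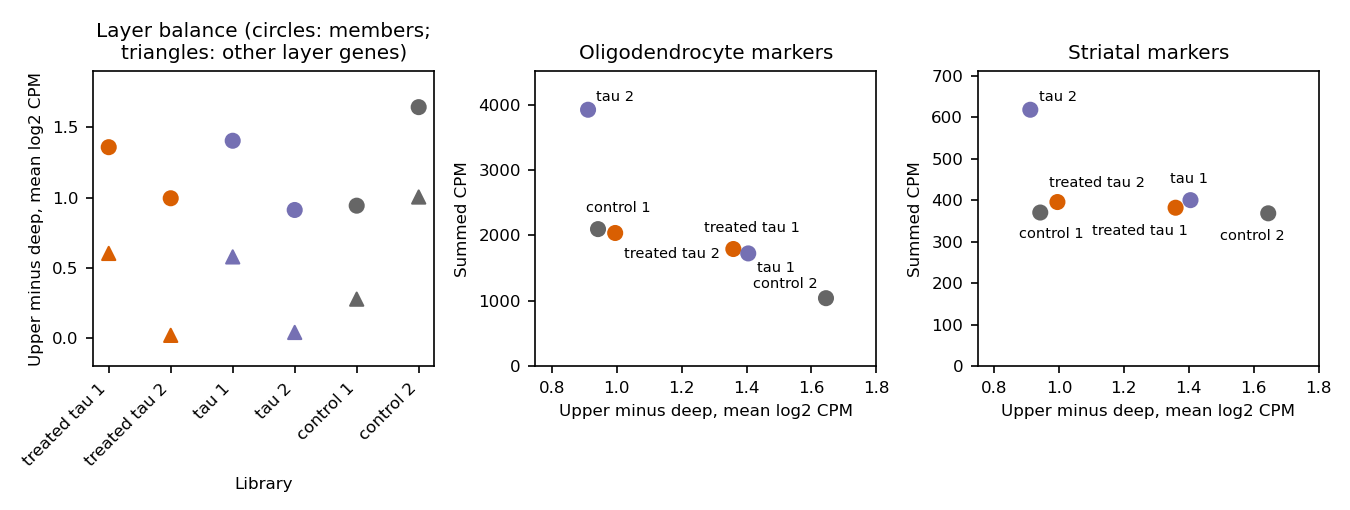
Left, mean log2 CPM of upper layer minus deep layer genes by library, for members (circles) and other layer genes (triangles), and in the middle and right panels summed CPM of oligodendrocyte and of striatal markers against the members' difference, 1 point per library. Duplicates lie up to 0.70 log2 units apart, and the library with the fewest oligodendrocyte counts (control 2, 1039 CPM) has the largest difference, 1.64.

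Genes of the deepest cortical sheet also differed between duplicates. Ctgf, Nxph4, Cplx3 and Nr4a2 are known from layer 6b, which borders the white matter, and were picked out of the other deep layer genes after their values had been seen. Ctgf, a secreted matrix protein, had 22.2 and 36.8 CPM in treated tau, 18.5 and 32.3 CPM in tau, and 25.4 and 11.6 CPM in control. Cplx3, a complexin, had 11.7 and 11.9 CPM in treated tau, 8.56 and 17.9 CPM in tau, and 10.2 and 7.605 CPM in control. Nr4a2, an orphan nuclear receptor also made in the claustrum, had 6.31 and 13.7 CPM in treated tau, 5.98 and 13.1 CPM in tau, and 8.01 and 5.76 CPM in control. Nxph4, a neurexophilin, had 1.26 and 1.16 CPM in treated tau, 0.548 and 1.72 CPM in tau, and 1.89 and 0.392 CPM in control. In tau and control, the library with the lower upper-minus-deep difference had more of all 4. Of all 10 other deep layer genes, 7 had this direction in both groups, among them Rprm, Pcp4 and Zfpm2. Ldb2 and Parm1 ran the other way in both groups, and Sox5 did so in control. Of those 7, Rprm (43.2 and 41.3 CPM) and Nxph4 ran the other way in treated tau, and the rest kept the direction there. Parm1 had 72.0 and 82.2 CPM in treated tau, 70.7 and 61.5 CPM in tau, and 59.6 and 74.3 CPM in control, and Ldb2 had 72.7 and 73.8 CPM in treated tau, 76.8 and 65.1 CPM in tau, and 66.6 and 68.4 CPM in control.

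The broad excitatory genes mostly lay above their means in the treated tau libraries and in control 2, and below them in the library labelled control 1. Of the 13, 11 and 11 lay above their mean in treated tau, 5 and 3 in tau, and 0 and 10 in control. The library labelled control 1 was the lowest of all 6 for 15 of the 31 members. The share over all genes tested was not taken for this count, nor for the counts above the mean in any class. Neither kind of count is therefore shown to be particular to these genes. Mef2c had 1062 and 1034 CPM in treated tau, 1121 and 999 CPM in tau, and 878 and 1035 CPM in control. Nrgn had 367 and 327 CPM in treated tau, 310.2 and 318 CPM in tau, and 259 and 371 CPM in control, so treated tau lay above tau and inside the control range.

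Neurod6, a bHLH factor of maturing and adult pyramidal neurons (chromosome 6, 55677822 to 55681263), had 108 and 141 CPM in treated tau, 122 and 106 CPM in tau, and 91.4 and 99.1 CPM in control. Its relative Neurod2 had 68.1 and 68.8 CPM in treated tau, 58.3 and 66.9 CPM in tau, and 57.8 and 67.9 CPM in control, and Neurod1 stayed between 4.46 and 7.80 CPM in all libraries. The PS19 groups lay above control for Neurod6, whereas for Neurod2 treated tau lay above both other groups by a narrow margin. Lmo3, a LIM-only adaptor (chromosome 6, 138362918 to 138581968), had 109.5 and 109 CPM in treated tau, 115 and 95.5 CPM in tau, and 87.0 and 93.7 CPM in control. Lmo4 had 258 and 264 CPM in treated tau, 273 and 229 CPM in tau, and 234 and 238 CPM in control. For both LIM-only genes treated tau exceeded control without overlap.

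Foxp1, a forkhead factor of layers 3 to 5 and of striatal neurons (chromosome 6, 98925338 to 99522721), had 126 and 127 CPM in treated tau, 110.4 and 108 CPM in tau, and 102 and 119 CPM in control. Pou3f2, a POU factor of upper layer and layer 5 neurons (chromosome 4, 22482780 to 22488366), had 54.1 and 48.3 CPM in treated tau, 42.1 and 36.7 CPM in tau, and 37.7 and 53.0 CPM in control. Its relative Pou3f1 ranged from 13.2 to 19.4 CPM over the libraries with overlapping groups. Lhx2, a LIM homeodomain factor, had 37.5 and 34.7 CPM in treated tau, 32.0 and 30.7 CPM in tau, and 27.7 and 34.2 CPM in control. Bhlhe22, a bHLH factor of cortical projection neurons, had 34.3 and 30.6 CPM in treated tau, 29.8 and 19.3 CPM in tau, and 19.1 and 32.5 CPM in control. Emx1, the homeobox gene of the dorsal telencephalon, ranged from 9.69 to 13.5 CPM with all groups overlapping. For Foxp1, Pou3f2, Lhx2 and Bhlhe22 both treated tau values exceeded both tau values.

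The first comparison sets tau against control for these genes. Both tau libraries carried Xist, whereas the library labelled control 1 carried Ddx3y and had Prnp within the range of the PS19 libraries. A difference here is therefore not shown to come from the transgene alone. In tau against control, 0 of 31 members were called at an adjusted p under 0.05 by edgeR's quasi-likelihood test with Benjamini-Hochberg adjustment over the 20694 genes tested, and 0% of all genes were called. DESeq2, which gave no adjusted p for 7 of the 31, and limma-voom also called 0 members. At an unadjusted p under 0.05 there was 1 member (3.23%), against 9.95% of all genes and 9.98% of protein-coding genes. Tau and control did not overlap in 6 members that were higher in tau (19.4%: Fezf2, Bcl11b, Foxp2, Etv1, Neurod6 and Lmo3), against 20.3% of all genes and 23.8% of protein-coding genes, and in 3 that were lower (9.68%: Cux1, Ntng2 and Tshz2), against 21.3% of all genes and 17.9% of protein-coding genes. The log2 fold change was positive in 1 of 6 upper layer, 8 of 12 deep layer and 5 of 13 broad members, and its median was -0.21, 0.07 and -0.01 in these classes, beside -0.003 over all genes tested. Over all 31 members it was positive in 14 (45.2%), against 49.4% of all genes and 54.6% of protein-coding genes.

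The 6 members with the smallest p in this comparison were Foxp2, Lmo3, Cux1, Neurod6, Rorb and Fezf2. Foxp2 averaged 31.7 ± 4.90 CPM in tau and 25.0 ± 3.18 CPM in control (SD, n = 2 each), a log2 fold change of 0.33 ± 0.14 (SE) with an edgeR adjusted p of 0.484. Lmo3 gave 0.22 ± 0.10 (edgeR adjusted p = 0.506) and Neurod6 0.26 ± 0.13 (adjusted p = 0.519). Fezf2 gave 0.25 ± 0.13 (edgeR adjusted p = 0.540). The upper layer genes had negative values, with Cux1 at -0.24 ± 0.11 (edgeR adjusted p = 0.507) and Rorb at -0.31 ± 0.16 (adjusted p = 0.538). Foxp2 is also a striatal gene, and the 12 striatal markers summed to 400.4 and 619 CPM in tau, against 371 and 369 CPM in control. Their part in its value was not tested. Over the alternatives, the edgeR, DESeq2 or limma adjusted p of Foxp2 ranged from 0.386 to 0.786. With 1 library left out its log2 fold change ran from 0.17 (without tau 2) to 0.49 (without tau 1), and that of Rorb from -0.53 (without tau 1) to -0.061 (without control 2). That of Cux1 ran from -0.31 (without control 1) to -0.17 (without control 2). Without tau 1 and without tau 2, Lmo3 gave 0.084 and 0.35, Neurod6 0.16 and 0.36, and Fezf2 0.14 and 0.35.

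The second comparison sets PS19 tissue given WDR5-0103 against PS19 tissue given vehicle, where treatment and sex cannot be told apart. In treated tau against tau, 0 of 31 members were called by edgeR's quasi-likelihood test, against 3.76% of all genes (779 called) and 1.11% of the 14739 protein-coding genes, the class to which all 31 members belong. DESeq2 and limma-voom also called 0 members. At an unadjusted p under 0.05 there were 3 members (9.68%: Rorb, Pou3f2 and Foxp1), against 12% of all genes and 8.73% of protein-coding genes. The groups did not overlap in 10 members that were higher in treated tau (32.3%), against 21.2% of all genes and 18.5% of protein-coding genes, namely Rorb, Tbr1, Ntng2, Tshz2, Neurod2, Nrgn, Foxp1, Pou3f2, Lhx2 and Bhlhe22. They did not overlap in 1 that was lower, Foxp2 (3.23%, against 20.1% of all genes and 20.3% of protein-coding genes). A positive log2 fold change was seen in 4 of 6 upper layer, 9 of 12 deep layer and 12 of 13 broad members, together 80.6%, against 48.7% of all genes and 47.2% of protein-coding genes. The median was 0.12 over the 31 members and 0.13 over the broad class, beside -0.01 over all genes tested, so the shifts were small. These shares and medians carry no test, and the members were chosen with earlier results of these data known.

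Rorb averaged 95.3 ± 3.64 CPM in treated tau and 71.0 ± 14.03 CPM in tau (SD, n = 2 each), a log2 fold change of 0.42 ± 0.16 (SE) with an edgeR adjusted p of 0.305, the smallest of the members. Pou3f2 averaged 51.2 ± 4.11 CPM in treated tau and 39.4 ± 3.85 CPM in tau (SD, n = 2 each), a log2 fold change of 0.37 ± 0.15 with an edgeR adjusted p of 0.360. Foxp1 had the tightest duplicates, averaging 127 ± 0.958 CPM in treated tau and 109 ± 1.57 CPM in tau (SD, n = 2 each), and its log2 fold change was 0.21 ± 0.09 with an edgeR adjusted p of 0.392. Tbr1 gave 0.24 ± 0.13 (edgeR adjusted p = 0.523) and Foxp2 -0.24 ± 0.14 (adjusted p = 0.570). Deptor gave 0.29 ± 0.14 (edgeR adjusted p = 0.499). Without the library labelled control 1 and tau 2 together, Deptor was called, with a log2 fold change of 0.53. That fit leaves 1 tau and 1 control library, so its spread between libraries comes from the treated tau duplicates alone. With 1 library left out the log2 fold change of Deptor ran from 0.069 (without tau 1) to 0.53 (without tau 2). Over the same omissions Tbr1 ran from 0.12 to 0.37, whereas Rorb ran from 0.64 without tau 1 to 0.24 without tau 2 and Pou3f2 from 0.48 to 0.29. Foxp2 stood at -0.40 without tau 1 and at -0.082 without tau 2.

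The third comparison sets treated tau against control and shares its libraries with the other two. In treated tau against control, 0 of 31 members were called by edgeR's quasi-likelihood test, against 4.22% of all genes (873 called) and 0.943% of protein-coding genes, and DESeq2 and limma-voom called 0 as well. At an unadjusted p under 0.05 there were 4 members (12.9%: Neurod6, Lmo3, Bcl11b and Etv1), against 16.3% of all genes and 10.1% of protein-coding genes. The groups did not overlap in 10 members that were higher in treated tau (32.3%), against 23% of all genes and 22.5% of protein-coding genes, namely Tbr1, Fezf2, Bcl11b, Etv1, Neurod2, Neurod6, Foxp1, Lmo3, Lmo4 and Lhx2. They did not overlap in 0 that were lower, against 23.3% of all genes and 19% of protein-coding genes. The log2 fold change was positive in 3 of 6 upper layer, 8 of 12 deep layer and 12 of 13 broad members, 74.2% in all, against 48.8% of all genes and 52.6% of protein-coding genes. The median was 0.11 over the members, 0.27 without control 2 and 0.023 without the library labelled control 1.

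Neurod6 had the smallest adjusted p of any member in any comparison. It averaged 125 ± 22.8 CPM in treated tau and 95.3 ± 5.44 CPM in control (SD, n = 2 each), a log2 fold change of 0.38 ± 0.13 (SE) with an edgeR adjusted p of 0.159. Lmo3 averaged 109 ± 0.319 CPM in treated tau and 90.4 ± 4.74 CPM in control (SD, n = 2 each), with a log2 fold change of 0.27 ± 0.10 and an edgeR adjusted p of 0.203. Bcl11b gave 0.29 ± 0.11 (edgeR adjusted p = 0.235) and Etv1 0.23 ± 0.10 (adjusted p = 0.292). Foxp1 gave 0.19 ± 0.09 (edgeR adjusted p = 0.336) and Tbr1 0.25 ± 0.13 (adjusted p = 0.379). With some libraries left out, single members were called. Without control 2, Nrgn was called higher in treated tau (log2 fold change 0.43). The reference there is the library labelled control 1 alone, the lowest library for Nrgn, whose Prnp level goes against its label. Without the library labelled control 1 and tau 2, Cux2 (log2 fold change -0.42) and Otof (-0.68) were called lower. The only control library in that fit is control 2, the highest library for every upper layer gene, and the spread comes from the treated tau duplicates. Control 2 carried Xist, whereas both treated tau libraries carried Ddx3y. With the library labelled control 1 alone left out, neither gene was called. With 1 library left out, the log2 fold change of Neurod6 ran from 0.19 (without treated tau 2) to 0.57 (without treated tau 1), and by the same libraries that of Bcl11b from 0.14 to 0.45 and that of Etv1 from 0.15 to 0.32. Tbr1 ran from 0.086 (without control 1) to 0.44 (without control 2) and Foxp1 from 0.090 to 0.32 by the same libraries.

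**Figure D4:**
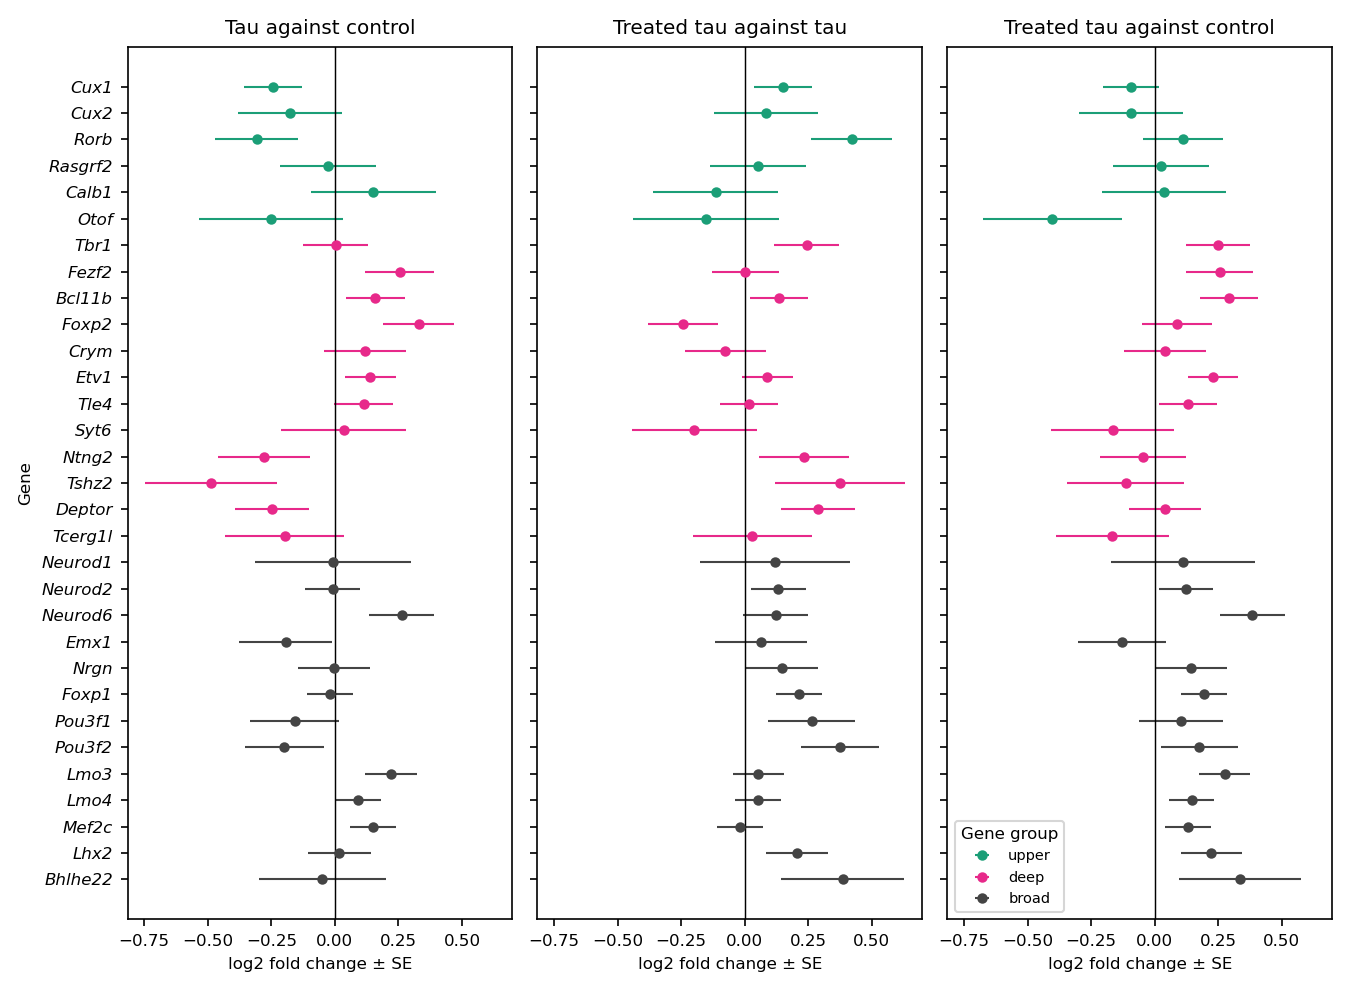
Log2 fold change of each member in tau against control, treated tau against tau and treated tau against control, with bars of 1 SE from edgeR and genes grouped by class. In treated tau against tau 12 of 13 broad members lie above 0, and no member passed an adjusted p of 0.05 in any panel.

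Of the other layer and excitatory genes listed beside the members, 23 of 24 were tested, and 0 were called in each comparison by edgeR's quasi-likelihood test. Those with the smallest p in tau against control were Mdga1, an adhesion protein of layers 2 and 3, Zfpm2, a zinc finger cofactor of layer 6, and Sv2b, a synaptic vesicle protein. Mdga1 had 6.69 and 6.30 CPM in treated tau, 3.32 and 4.93 CPM in tau, and 18.0 and 7.10 CPM in control. Its log2 fold change was -1.65 ± 0.42 for tau against control (edgeR adjusted p = 0.441) and -0.95 ± 0.36 for treated tau against control (adjusted p = 0.224), and its highest value lay in the library labelled control 1, which held the olfactory bulb markers. Zfpm2 gave 0.42 ± 0.13 for tau against control (edgeR adjusted p = 0.441) and 0.28 ± 0.13 for treated tau against control (adjusted p = 0.337). Sv2b gave 0.16 ± 0.09 for tau against control (edgeR adjusted p = 0.551). In treated tau against tau, Sox5, a SOX factor of deep layer neurons, gave 0.22 ± 0.09 (edgeR adjusted p = 0.342) and Slc17a7 gave 0.14 ± 0.06 (adjusted p = 0.430). Lamp5, a membrane protein of upper layer neurons and some interneurons, had the smallest in treated tau against control, at 0.49 ± 0.13 (edgeR adjusted p = 0.0855).

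The precision behind these values was set by the duplicates. The largest fold between duplicates of a group exceeded the largest fold between group means in 27 of 31 members (87.1%), against 62.1% of 20249 genes with a count in every library. Group means average their duplicates, which favours this order for any gene. This held for 6 of 6 upper layer, 10 of 12 deep layer and 11 of 13 broad members, and the exceptions were Foxp2, Etv1, Neurod6 and Lmo3. The median of the largest duplicate fold was 1.24 over the broad genes, 1.30 over all 31 members and 1.28 over the 20249 genes. The median of the largest fold between group means was 1.18 over the members and 1.21 over the 20249 genes. The members' duplicates thus lay about as far apart as those of other genes. No share over protein-coding genes alone was taken. The standard error of a member's log2 fold change ranged from 0.09 to 0.31 with a median of 0.14, so a member that missed the threshold is not shown to be equal between groups.

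Counting was uncertain for 6 members that share more of their sequence with other genes. Tshz2 shared 65.6% of its 50-base stretches with other annotated genes, among them the antisense gene Gm26883, listed at 0 to 0.0392 CPM. Ntng2 shared 9.89%, and the gene 6530402F18Rik, which overlaps it on the same strand, had 7.35 to 11.4 CPM, against 9.82 to 13.6 CPM of Ntng2. Neurod1 shared 9.66%, Etv1 9.08%, Syt6 7.59% and Pou3f1 7.42%. The antisense partner of Syt6, Atg4a-ps, had 0.978 to 1.62 CPM, and without a stated strand setting its reads cannot be told apart from those of Syt6.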

How the data were processed

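Per the labels' protocols, strand-specific libraries were made from ribosome-depleted total RNA of biological duplicates and sequenced, with trimming by Cutadapt and alignment by TopHat2 against RefSeq mRNAs of the mouse. Counting by featureCounts and the build mm10 are named in the submitters' processing notes. Tool versions, strand setting and the treatment of multi-mapped reads were not given in the sources used here. As deposited, the values are raw counts per gene symbol, made by the authors with no normalization. Symbols outside the 53640 shared ones held 0.333% to 0.352% of a library's counts and were left out. Libraries are numbered as in the titles, since the file headers number 4 of them otherwise.

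Counts were filtered (filterByExpr, minimum count 10, 20694 genes), scaled by TMM and fitted over all 6 libraries by edgeR 4.0.16 (quasi-likelihood test, legacy option off, two-sided, group as the only term, 3 residual degrees of freedom) in R 4.3.3. Adjusted p values are Benjamini-Hochberg values over all genes tested, and a call is an adjusted p under 0.05. DESeq2 1.42.0 and limma 3.58.1 were alternatives. The script was tested on simulated data. Mean log2 CPM used a prior count of 2. Exon lengths, positions and overlaps came from GENCODE M21 (mm10), which matched 20557 of the tested symbols, and promoters from RefSeq. Ccn2 is listed under its older symbol Ctgf.

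Members, lists and tests were chosen with earlier results of these data known. All members are named. Full statistics go to called members or, where fewer than 6 were called in a comparison, to the 6 with the smallest p, and of the other layer genes the 3 with the smallest p are named, except 1 that is not reported here. In the marker lists, 2 libraries a group limit the precision, and counts carry no molecular identifiers.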

Additional observations from a re-analysis of the deposited data

How the results depend on the processing

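Across 16 alternatives (other tools, scalings, filters, gene classes, a replicate block, the compared groups alone and libraries left out), 287 of 288 values of the fully reported members kept their direction and their side of the threshold; the exception was Deptor in treated tau against tau. Over all 31 members and 3 comparisons, 115 of 1488 values had the opposite sign, all where the log2 fold change over the 6 libraries was at most 0.25 in size. Genes called in tau against control numbered 55 with DESeq2, 0 to 98 with 1 library left out (98 without control 2, 9 without tau 2) and 130 without both the library labelled control 1 and tau 2, an alternative chosen after seeing the data, against 0 over all libraries. With protein-coding genes only, 45 were called in treated tau against tau and 40 in treated tau against control. With 1 library left out, 354 (without tau 1) to 840 genes were called in treated tau against tau and 495 (without treated tau 2) to 817 in treated tau against control. Members called with 1 library left out numbered 0 in tau against control, 0 in treated tau against tau and 0 to 1 in treated tau against control (1 without control 2). Without both libraries, Deptor was called in treated tau against tau and Cux2 and Otof in treated tau against control. That fit holds 1 tau and 1 control library. The members' median log2 fold change in tau against control was -0.01 and ran, with 1 library left out, from -0.16 (without control 1) to 0.11 (without control 2), and was -0.11 without both. With 1 library left out it ran from 0.11 to 0.13 in treated tau against tau (0.089 to 0.14 over all 16 alternatives), and in treated tau against control from 0.023 (without control 1) to 0.27 (without control 2). With 1 library left out, the upper-minus-deep difference ran from -0.49 to 0.22 for tau minus control, from -0.23 to 0.27 for treated tau minus tau and from -0.47 to 0.23 for treated tau minus control. The cause of these shifts was not tested.

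With the replicate number as a block, edgeR called 0, 708 and 796 genes in tau against control, treated tau against tau and treated tau against control, and 0 members in each. Same-numbered libraries deviated together with correlations of only 0.01, -0.01 and 0.07, so the numbers are not shown to pair them. The members' counts ran from 71 to 36319 reads per library, and the fit had 2 libraries a group and 3 residual degrees of freedom.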
